A study of Mus musculus with 24 samples.

Results

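A list of 10 genes of fatty acid binding and lipid droplets was followed in mouse liver: Fabp1, Fabp2, Fabp4, Fabp5 and Fabp7, which code for cytosolic fatty acid carriers, Cd36, a fatty acid transporter of the cell surface, and Plin2, Plin5, Cidec and G0s2, which code for proteins of the lipid droplet. The genes were chosen by name and role when results of these livers were already known, among them the Fabp5 levels of the GCV- and VEH-treated wild-type females. The study had also reported Cd36 as lower after cell clearance, in an analysis that includes the p16-3MR females. All 10 were found among the 21755 genes of the p16-3MR table. In the table of 12643 genes from wild-type (WT) mice, 9 lower-case letters are missing from the gene labels, and 9 of the 10 genes had a label that fits 1 symbol only (Fabp5 is written Fap5). Plin2 was not read in WT livers because its label, Pi2, also fits Peli2, Pim2 and Pmis2.

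The p16-3MR mice carry a transgene that puts a viral thymidine kinase, along with reporters, under the control of the p16Ink4a promoter, so that ganciclovir (GCV) is turned into a toxic product in cells that express p16. From 16 to 18 months of age they were injected intraperitoneally on 5 days in a row each month with GCV (150 mg/kg according to the labels) or with the vehicle alone (VEH, alkaline water), and the study's methods name a lower dose. WT mice, which lack the transgene, received GCV or VEH on the same monthly scheme from 6 months of age, for 3 months. The labels also call the WT mice age-matched, which differs from these starting ages. The study's methods place the collection of the p16-3MR livers at about 28 months of age and that of the WT livers after the 3 months of treatment. Each genotype had 3 livers in each of 4 groups, GCV-treated females (p16-3MR livers 31, 33 and 35, WT livers 4, 5 and 6), VEH-treated females (27, 28 and 29, WT 4, 5 and 6), GCV-treated males (30, 32 and 34, WT 1, 2 and 3) and VEH-treated males (24, 25 and 26, WT 1, 2 and 3). All p16-3MR livers were in batch 1 and all WT livers in batch 2, so genotype, age and batch cannot be told apart and no test was made between the genotypes.

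Long fatty acids enter hepatocytes in part through Cd36, are carried through the cytosol by fatty acid-binding proteins, and are burned, exported or stored as triglyceride in lipid droplets. Perilipins coat the droplets, Cidec fuses small droplets into large ones, and G0s2 blocks the lipase that opens them. Fabp1 is the carrier of hepatocytes and Fabp2 that of the intestine, while Fabp4 is best known from fat cells and macrophages, Fabp5 from skin and macrophages, and Fabp7 from brain.

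In the mouse genome (GRCm38, RefSeq annotation) Fabp5 lies at chr3:10012585-10016610 and Fabp4 at chr3:10204342-10208616, and Fabp2 is on the same chromosome, at chr3:122895072-122899506. Fabp1 lies at chr6:71199879-71205034, Cidec at chr6:113424634-113435760, Fabp7 at chr10:57784923-57788450, Cd36 at chr5:17781690-17888959, Plin2 at chr4:86626910-86670217, Plin5 at chr17:56111597-56117606 and G0s2 at chr1:193272160-193273188. RefSeq promoter windows, which run from 250 bases before to 50 bases after a transcript start, matched 8 of the 10 genes. The windows of Fabp1, Fabp2, Plin5 and Cidec are printed because, among the 6 WT males, these genes were highest in the same 3, and that of G0s2 because it differed between VEH-treated males and females. Capitals mark AGGTCA, a motif bound by nuclear receptors such as PPARA, on either strand (TGACCT when it lies on the other strand), and TATAAA. Each line reads 5′ to 3′ on the strand of its gene.
Fabp1 (plus strand, chr6:71199629-71199928): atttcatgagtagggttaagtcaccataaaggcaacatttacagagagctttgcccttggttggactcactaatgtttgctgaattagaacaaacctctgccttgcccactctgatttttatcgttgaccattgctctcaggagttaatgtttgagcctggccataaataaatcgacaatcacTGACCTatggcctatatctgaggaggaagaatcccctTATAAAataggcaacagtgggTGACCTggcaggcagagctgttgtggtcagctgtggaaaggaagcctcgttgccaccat
Fabp2 (plus strand, chr3:122894822-122895121): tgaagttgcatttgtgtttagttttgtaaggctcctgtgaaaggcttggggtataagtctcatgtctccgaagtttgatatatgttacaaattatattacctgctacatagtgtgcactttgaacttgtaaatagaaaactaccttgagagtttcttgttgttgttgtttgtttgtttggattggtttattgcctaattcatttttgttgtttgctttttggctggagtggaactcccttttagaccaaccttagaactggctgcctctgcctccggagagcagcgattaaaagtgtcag
Plin5 (minus strand, chr17:56117499-56117798): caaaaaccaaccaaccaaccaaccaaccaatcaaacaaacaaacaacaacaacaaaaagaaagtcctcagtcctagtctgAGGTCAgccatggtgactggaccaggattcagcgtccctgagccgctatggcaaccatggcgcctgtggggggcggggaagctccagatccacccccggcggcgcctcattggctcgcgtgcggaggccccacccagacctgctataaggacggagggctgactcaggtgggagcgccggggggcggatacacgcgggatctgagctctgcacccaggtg
Cidec (minus strand, chr6:113435711-113436010): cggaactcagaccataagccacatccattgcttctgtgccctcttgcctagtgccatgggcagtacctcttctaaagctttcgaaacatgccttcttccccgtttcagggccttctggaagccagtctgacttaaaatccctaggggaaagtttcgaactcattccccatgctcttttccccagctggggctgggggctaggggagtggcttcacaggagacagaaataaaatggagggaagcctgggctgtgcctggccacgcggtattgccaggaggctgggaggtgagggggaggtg
G0s2 (minus strand, chr1:193273139-193273438): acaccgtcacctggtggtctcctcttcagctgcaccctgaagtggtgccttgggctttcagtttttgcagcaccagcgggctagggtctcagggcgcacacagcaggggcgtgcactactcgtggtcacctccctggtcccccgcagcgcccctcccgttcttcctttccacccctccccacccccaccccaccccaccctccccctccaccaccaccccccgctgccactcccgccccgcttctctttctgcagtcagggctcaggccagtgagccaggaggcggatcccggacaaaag

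The Fabp1 window holds TATAAA at base -30 from the start and AGGTCA on the other strand at bases -67 and -9, and the printed Plin5 window holds AGGTCA at base -170. The printed windows of Fabp2, Cidec and G0s2 hold none of these motifs. AGGTCA was found in 6 of the 10 member windows (in 1 each of Fabp1, Cd36, Plin2 and Fabp7 and both of Plin5), against 16.3% of all 32851 promoter windows of this length, and TATAAA in 1 of the 10 against 13.6%. An exact DR1 element, a direct repeat of that motif spaced by 1 base, was in 0 member windows and in 0.0396% of all windows. Only exact matches were counted and looser forms of the element were not sought. With so rare a string, 0 among 10 windows says little about the element. Both strands were searched, and each exact element also counts for the shorter motif. These matches describe letters and no binding.

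Libraries were made with Smart-3SEQ, which reads the 3′ ends of transcripts, and held 5005760 to 7160172 counts per p16-3MR liver and 3084517 to 5667904 per WT liver. Levels are CPM, counts scaled to a fixed library size with TMM factors, and are compared between livers and not between genes. The spread between livers of a group was far wider in p16-3MR mice, with a biological coefficient of variation of 55.8% against 16.6% in WT mice. In all, 3 p16-3MR livers stood apart. In GCV-treated female 33, mitochondrially encoded genes took 64.0% of the counts, against 12.3 to 22.4% in the other 11. In GCV-treated male 32 and VEH-treated male 24, 7 macrophage and Kupffer cell markers summed to 2900 and 1796 CPM, against 97.1 to 931 CPM in the other 10, and 6 hepatocyte markers to 23794 and 37678 CPM, against 71798 to 157790 CPM. Hepatocyte markers led in every liver of both genotypes, and adipocyte markers were at or near 0 in p16-3MR livers, with 4 of 6 measured and a sum of 0 to 7.68 CPM. In bulk tissue, fewer cells of a type and less RNA per cell cannot be told apart.

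Fabp5 differed between groups of WT mice. Its level was 487, 767 and 704 CPM in the VEH-treated females and 216, 188 and 197 CPM in the GCV-treated females. It was 337, 134 and 153 CPM in the VEH-treated males and 368, 244 and 306 CPM in the GCV-treated males. The VEH-treated females thus lay above each of the other 9 livers, and both GCV groups lay between 188 and 368 CPM.

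**Figure D1:**
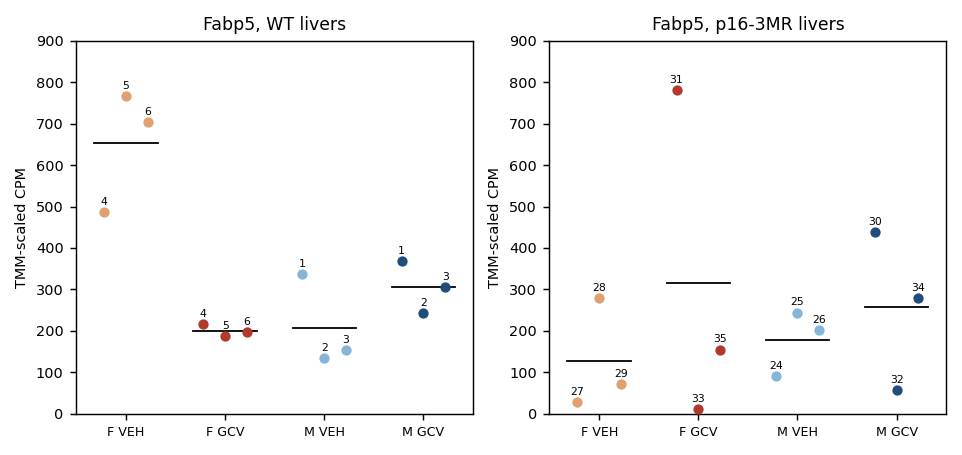
Fabp5 level (TMM-scaled CPM, linear axis from 0) in each WT liver (left) and p16-3MR liver (right), with points numbered by liver and a black line at the mean of each group of 3. In WT livers the VEH-treated females (487 to 767 CPM) sit above all others, while in p16-3MR livers every group overlaps the others, from 11.6 to 782 CPM.

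Between GCV- and VEH-treated WT females, Fabp5 differed by a log2 fold change of -1.70 (standard error 0.24), from 653 ± 147 CPM (SD, n = 3) after VEH to 200 ± 14.4 CPM (SD, n = 3) after GCV. This difference was known when the genes were chosen and is given as a description. It was the 1 gene of 12643 called in this comparison (0.00791% of genes, edgeR adjusted p-value under 0.05). With 1 liver left out, 0 to 12 genes were called there. In males the log2 fold change of Fabp5 was 0.56 (standard error 0.24, adjusted p = 0.889), with ranges that overlapped. The response of females less that of males was -2.26 on the log2 scale (standard error 0.34), again the 1 gene called (0.00791%), and it rests on the same females. It was called in 5 of the 12 fits with 1 liver left out, with values from -2.80 to -2.03, and was not called by DESeq2 (adjusted p = 0.0946). In the 12 fits 0 to 17 of all genes were called for this response. The level in VEH-treated females was above that in VEH-treated males, without overlap (18.5% of all genes), by 1.65 on the log2 scale (standard error 0.24), with values from 1.42 to 2.19 with 1 liver left out. It rests on the same VEH-treated females and is a description too. Among GCV-treated livers the order was turned, with 200 ± 14.4 CPM (SD, n = 3) in females and 306 ± 62.4 CPM (SD, n = 3) in males. These ranges did not overlap, which held for 18.4% of all genes, and the log2 fold change was -0.61 (standard error 0.24). The levels of these females were known as well, so this too is a description. The call in females was lost without GCV-treated female 5 or 6 or VEH-treated female 6 (adjusted p = 0.0662, 0.0913 and 0.0541) and with a low-count filter (adjusted p = 0.126), with log2 fold changes from -1.88 to -1.57 over all livers left out. Without VEH-treated male 1, the male with the highest Fabp5 level under VEH, Fabp5 was called in males as higher after GCV (log2 fold change 1.09, adjusted p = 0.00244). Without VEH-treated male 2 the value in males was 0.32. With a block on the replicate number within sex it was 0.66 and was called (adjusted p = 2.61e-05), though these numbers were not taken to pair livers. No gene of the marker lists was called between GCV and VEH in WT mice by edgeR. At an unadjusted p under 0.05, 1 of 2 hepatocyte markers was higher after GCV in females (median log2 fold change 0.33). In males the 1 adipocyte marker was lower (-2.10) and 1 of 3 B cell markers was higher (median 0.73). The erythroid list had genes at that p in both sexes. Its 3 readable genes of 4 summed to 507, 887 and 820 CPM in VEH-treated and to 1197, 1171 and 866 CPM in GCV-treated females. All 3 were higher after GCV at that p (against 4.56% of all genes in either direction), with a median log2 fold change of 0.54. In males they summed to 872, 982 and 1009 CPM after VEH and to 1022, 2307 and 1039 CPM after GCV. There 2 of 3 were higher at that p (against 5.06% of all genes in either direction), with a median of 0.66. The ranges of the sums overlapped in females and not in males, and the part of these cells in the level of Fabp5 was not tested.

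A total of 5 processed pseudogenes in the annotation (Gm6166, Gm14328, Fabp5l2, Gm13998 and Gm6100) match the 987-base Fabp5 transcript from base 93 to a base between 428 (Gm13998) and 500 (Gm14328 and Gm6100) at 93.6 to 98.3% identity, so the counting could have shared reads among them. In WT livers 1 copy was measured and held 0 to 0.812% of the summed counts, and adding it left the log2 fold change in females at -1.70. In p16-3MR livers 2 copies held 9.94 to 15.1% of the sum in 11 livers and 0 counts in GCV-treated female 33.

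Fabp1 and Fabp2, the liver and the intestinal carrier, split the WT males in the same way. Fabp1 was at 8519, 14893 and 14912 CPM in VEH-treated males 1, 2 and 3 and at 9255, 13001 and 8741 CPM in GCV-treated males 1, 2 and 3. Fabp2 was at 54.3, 132 and 132 CPM in the VEH-treated males and at 66.0, 93.5 and 69.9 CPM in the GCV-treated males. For both genes VEH-treated males 2 and 3 and GCV-treated male 2 were the highest 3 of the 6 males, whatever the treatment. In females, Fabp1 lay between 7204 and 14270 CPM and Fabp2 between 78.0 and 103 CPM, with ranges of the treatments that overlapped. The log2 fold change after GCV in males was -0.31 for Fabp1 (standard error 0.20, adjusted p = 0.889) and -0.47 for Fabp2 (standard error 0.22, adjusted p = 0.889). Without VEH-treated male 1, Fabp2 was called as lower after GCV in males (log2 fold change -0.78, adjusted p = 0.0112). In females, Fabp1 had a log2 fold change of -0.26 and Fabp2 of -0.16, each with an adjusted p of 1.

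Fabp4, the carrier of fat cells and macrophages, was at 9.46, 12.8 and 10.3 CPM in the VEH-treated WT females and at 18.1, 13.5 and 15.7 CPM in the GCV-treated females. The ranges did not overlap, which held for 10% of all genes in this comparison, and the log2 fold change of 0.54 (standard error 0.24) was not called (unadjusted p = 0.0366, adjusted p = 1). In males it was at 19.7, 10.7 and 21.3 CPM after VEH and at 17.3, 22.2 and 16.8 CPM after GCV, with overlap. Without VEH-treated male 2, the lowest of the males, the lower level in VEH-treated females than in VEH-treated males was called (log2 fold change -0.92, adjusted p = 0.0262, against -0.67 and 0.157 with all livers). Fabp7, the brain-type carrier, was near the limit of detection in WT livers, at 2.14 to 6.12 CPM, where 3 counts are worth 0.516 to 0.943 CPM. In males it was at 6.12, 3.93 and 5.61 CPM after VEH and at 2.83, 3.08 and 2.14 CPM after GCV. These ranges did not overlap (8.85% of all genes), and the log2 fold change was -0.93 (standard error 0.39, adjusted p = 0.889).

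Cd36, the surface transporter, was at 29.1, 43.4 and 38.3 CPM in VEH-treated and at 39.5, 46.3 and 32.1 CPM in GCV-treated WT females. The males were at 12.5, 36.3 and 28.6 CPM after VEH and at 25.5, 21.3 and 23.5 CPM after GCV. Among GCV-treated livers each female was above each male, as for 18.4% of all genes in either direction, with a log2 fold change of 0.74 (standard error 0.26, unadjusted p = 0.00832, adjusted p = 0.145). It was called when only these 6 livers were fitted (adjusted p = 0.00759) and without VEH-treated male 1 (adjusted p = 0.0132). Neither sex differed by treatment beyond the spread of its livers, with log2 fold changes of 0.09 in females and -0.16 in males. Both turned in sign when 1 liver was dropped, to -0.06 with VEH-treated female 4 left out and to 0.15 with VEH-treated male 2 left out.

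In all, 3 droplet genes were read in WT livers. G0s2, the inhibitor of the lipase Pnpla2, was at 64.1, 115 and 133 CPM in VEH-treated males and at 34.9, 56.4 and 58.6 CPM in GCV-treated males. In females it was at 51.6, 52.9 and 45.1 CPM after VEH and at 53.8, 65.9 and 48.5 CPM after GCV. VEH-treated males 2 and 3 lay above all other WT livers, while the lowest of that group, male 1, was just under GCV-treated female 5. G0s2 was lower in VEH-treated females than in VEH-treated males (log2 fold change -1.07, standard error 0.21, adjusted p = 0.00316), and the call was kept with each liver left out in turn. After GCV, females and males differed by 0.15 (standard error 0.22, adjusted p = 0.833). In males, GCV-treated livers were lower than VEH-treated livers without overlap, as for 8.85% of all genes in either direction (log2 fold change -1.06, standard error 0.21), at an unadjusted p of 6.49e-05 and an adjusted p of 0.357, so it was not called. Without VEH-treated male 1 it was called in males (log2 fold change -1.30, adjusted p = 0.000684), and so was the response of females less that of males (1.46, adjusted p = 0.00376, against 1.22 and 0.632 with all livers). A block on the replicate number within sex called both too (-1.04 and 1.20, adjusted p = 6.94e-09 and 3.4e-06), though these numbers were not taken to pair livers.

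Cidec, which fuses droplets, had few counts in WT livers. It was at 0.53, 6.56 and 6.96 CPM in VEH-treated males 1, 2 and 3 (2, 30 and 36 counts) and at 0.94, 4.31 and 0.31 CPM in GCV-treated males 1, 2 and 3 (3, 21 and 1 counts). The 6 females lay between 0.44 and 0.90 CPM (2 to 4 counts). The 3 livers with more counts were thus VEH-treated males 2 and 3 and GCV-treated male 2, the same 3 males that were highest for Fabp1 and Fabp2. Cidec was lower in VEH-treated females than in VEH-treated males (log2 fold change -2.90, standard error 0.81, adjusted p = 0.0441), although VEH-treated male 1 lay within the range of the females. This call was lost in 7 of the 12 fits with 1 liver left out, at adjusted p-values of up to 0.214 without VEH-treated male 3, and with limma-voom (adjusted p = 0.0816) and the low-count filter (adjusted p = 0.0552). Plin5, which ties droplets to mitochondria, was at 17.3, 33.01 and 30.95 CPM in VEH-treated males 1, 2 and 3 and at 18.6, 27.5 and 18.0 CPM in GCV-treated males 1, 2 and 3, so the same 3 males were the highest once more. Females were at 10.9 to 23.9 CPM. The log2 fold change of VEH-treated females against males was -0.63 (standard error 0.26, adjusted p = 0.232), and -0.86 (adjusted p = 0.0348) without VEH-treated male 1.

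**Figure D2:**
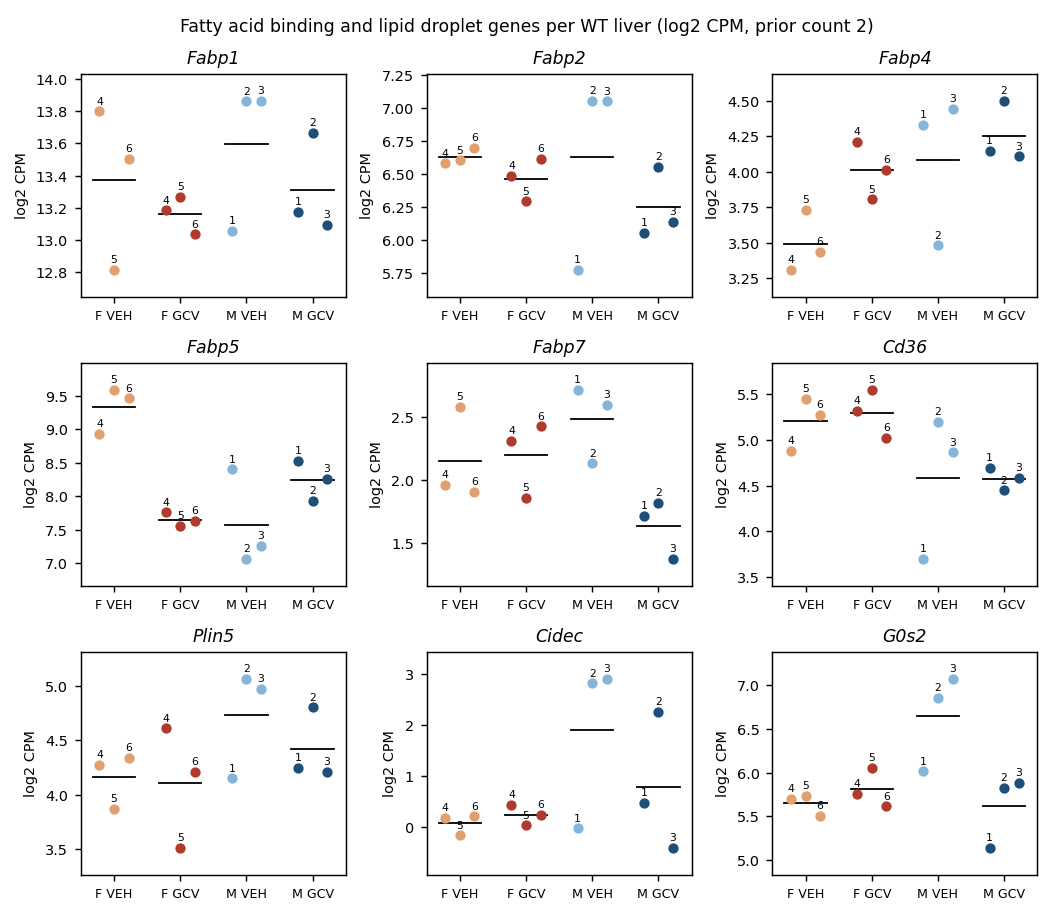
Level of the 9 members read in WT livers (log2 CPM with a prior count of 2), 1 panel per gene, with points numbered by liver and a black line at the mean of each group of 3. VEH-treated males 2 and 3 and GCV-treated male 2 are the highest males for Fabp1, Fabp2, Plin5 and Cidec, and the lowest males for Fabp5.

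For Fabp5 these 3 males were the lowest of the 6, at 134, 153 and 244 CPM against 306 to 368 CPM. Cfd, the 1 adipocyte marker of 6 that could be read in WT livers, was at 14.2 and 12.6 CPM in VEH-treated males 2 and 3, at 3.08 CPM in GCV-treated male 2 and at 0 to 1.83 CPM in the other 9 livers. The summed hepatocyte markers that could be read (2 of 6) were at 11480, 12020 and 11630 CPM in VEH-treated males 2 and 3 and GCV-treated male 2 and at 9601 to 10975 CPM in the other 9 livers, and the 5 macrophage markers of 7 were at 136, 118 and 108 CPM against 138 to 204 CPM. The part of these markers in the levels of the members was not tested.

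Counted over comparisons in WT mice, 3 of 9 members were called between VEH-treated females and males (Fabp5 higher, G0s2 and Cidec lower in females), against 3.82% of all genes, 5 had an unadjusted p under 0.05 (Fabp4 and Plin5 as well, 15.2% of all genes), and the median log2 fold change of the members was -0.35 against 0.02 over all genes. Between GCV-treated females and males, 0 of 9 were called against 3.24% of all genes, and the median was -0.17 against 0 over all genes. There 2 members had an unadjusted p under 0.05 (12.8% of all genes), DESeq2 and limma-voom called 0, and the fit of only the 6 livers called 2 (Fabp5 and Cd36), along with 4.52% of all genes. In females, GCV against VEH, 1 of 9 was called (Fabp5, against 0.00791% of all genes), Fabp5 and Fabp4 had an unadjusted p under 0.05 (4.56% of all genes), and the median was 0.06 against 0 over all genes. In males, 0 of 9 were called by edgeR (against 0% of all genes), DESeq2 or limma-voom and 4 had an unadjusted p under 0.05 (Fabp2, Fabp5, Fabp7 and G0s2, against 5.06% of all genes), and the median was -0.34 against 0.00. For the response of females less that of males, 1 was called (Fabp5, against 0.00791% of all genes) and 2 had an unadjusted p under 0.05 (Fabp5 and G0s2, against 4.45% of all genes). The median for this response was 0.35 against -0.01 over all genes. Each count that holds Fabp5 includes a gene chosen with its WT female levels known, and nothing is read from Fabp5 in it. Comparisons that share a group of livers are not independent of each other.

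Of 54 further genes of fatty acid uptake, triglyceride synthesis, droplets, lipolysis, export and their regulators, 32 could be read in WT livers. None was called between GCV and VEH in either sex by edgeR, where 2 had an unadjusted p under 0.05 in each sex (4.56% of all genes in females and 5.06% in males). Between VEH-treated females and males, 4 were higher and 1 was lower in females, against 3.82% of all genes called in either direction. The largest fitted change was in Pnpla3, a lipase-like droplet protein, with 1.96 CPM in females and 0.06 CPM in males (log2 fold change 4.28, standard error 1.23, adjusted p = 0.0307). Its males lay at 0 to 0.19 CPM, below the floor of 3 counts (0.516 to 0.943 CPM per WT liver), so the size of this change is not exact. Fitm1, which helps droplets form at the endoplasmic reticulum, was at 16.2, 12.2 and 11.8 CPM in VEH-treated females and at 27.9, 93.1 and 99.8 CPM in VEH-treated males (log2 fold change -2.46, standard error 0.32, adjusted p = 2.06e-05). Its GCV-treated females were at 17.6, 18.7 and 16.4 CPM and its GCV-treated males at 36.2, 59.3 and 56.5 CPM, so the sexes did not overlap under either treatment (18.5% of all genes under VEH and 18.4% under GCV). Lpin1, a phosphatidate phosphatase of triglyceride synthesis, was at 220, 106 and 136 CPM in VEH-treated females and at 104, 42.2 and 45.7 CPM in VEH-treated males (log2 fold change 1.28, standard error 0.28, adjusted p = 0.00741). VEH-treated males 2 and 3 were the highest livers for Fitm1 and the lowest for Lpin1. Tm6sf2, which loads lipid onto exported particles, and Lipc, the hepatic lipase, were higher in VEH-treated females by log2 fold changes of 1.36 and 0.69.

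Between GCV-treated females and males, 3 of the 32 were higher and 2 lower in females, against 3.24% of all genes. Lipc and Tm6sf2 were again higher in females, by log2 fold changes of 0.72 and 1.07, and the coactivator Ppargc1a by 0.76 (adjusted p = 0.0365). Fitm1 was lower by a log2 fold change of -1.54, and Abhd5, the activator of the lipase that G0s2 inhibits, by -0.95 (standard error 0.18, adjusted p = 0.00277). Abhd5 was at 15.8, 15.0 and 15.0 CPM in GCV-treated females and at 35.8, 25.2 and 28.1 CPM in GCV-treated males.

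In p16-3MR livers, none of the 10 members was called by edgeR in any comparison. For Fabp1 the levels were 1107, 671 and 893 CPM in VEH-treated females 27, 28 and 29 and 1392, 130 and 1924 CPM in GCV-treated females 31, 33 and 35. The males were at 222, 2056 and 1650 CPM after VEH (24, 25 and 26) and at 576, 54.9 and 2042 CPM after GCV (30, 32 and 34). The lowest 3 livers were thus GCV-treated male 32, GCV-treated female 33 and VEH-treated male 24, the 3 that stood apart. Its log2 fold change after GCV was 0.37 in females (standard error 1.1, adjusted p = 0.965) and -0.56 in males (standard error 1.1, adjusted p = 1), and 0.86 and -0.52 without the 3 livers. The value in females was -0.23 without GCV-treated female 35, and that in males -2.05 without GCV-treated male 34 and -0.02 without GCV-treated male 32. Fabp2 had 0 counts in GCV-treated female 33, where 3 counts are worth 2.32 CPM, and was at 3.42 CPM in GCV-treated male 32 and 10.5 CPM in VEH-treated male 24. Its other 9 livers lay between 19.0 and 85.2 CPM.

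Fabp4 and Fabp7 were high where Fabp1 was low in males. Fabp4 was at 49.1, 7.32 and 13.0 CPM in VEH-treated males 24, 25 and 26 and at 38.8, 129 and 13.3 CPM in GCV-treated males 30, 32 and 34. Fabp7 was at 30.1, 2.32 and 0.94 CPM in the VEH-treated and at 5.78, 51.7 and 0.77 CPM in the GCV-treated males. For both genes and for Cd36, the order among the 6 males began with GCV-treated male 32, then VEH-treated male 24, then GCV-treated male 30, as did that of their summed macrophage markers (2900, 1796 and 931 CPM), stellate cell markers (1227, 460 and 308 CPM) and T cell markers (12.9, 12.1 and 10.9 CPM). In the same livers the lipid-associated macrophage markers (293, 143 and 188 CPM), neutrophil markers (506, 169 and 173 CPM) and endothelial markers (271, 297 and 139 CPM) had other orders, as did those of B cells, cholangiocytes, proliferating and erythroid cells. The part of these cells in the levels was not tested. In females Fabp4 was at 7.24, 14.6 and 12.2 CPM after VEH and at 7.13, 55.6 and 15.6 CPM after GCV. The high liver was 33, with macrophage markers at 213 CPM. Its TMM factor of 0.259 raises its CPM values, and the part of this scaling in the level was not tested. The log2 fold change of Fabp4 after GCV was 1.14 in females (standard error 0.89, adjusted p = 0.738) and 1.38 in males (standard error 0.87, adjusted p = 1), and -0.03 and 1.37 without the 3 livers. The value in males was 0.10 without GCV-treated male 32 and 2.61 without VEH-treated male 24. Fabp7 in GCV-treated females was at 3.28, 0 and 1.34 CPM and in VEH-treated females at 2.41, 5.79 and 8.94 CPM. Among GCV-treated livers, where no member separated the sexes without overlap (8.25% of all genes did), Fabp7 was lower in females at an unadjusted p of 0.0326 (log2 fold change -3.41, standard error 1.44, adjusted p = 0.569), and the log2 fold change was -0.60 without the 3 livers.

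**Figure D3:**
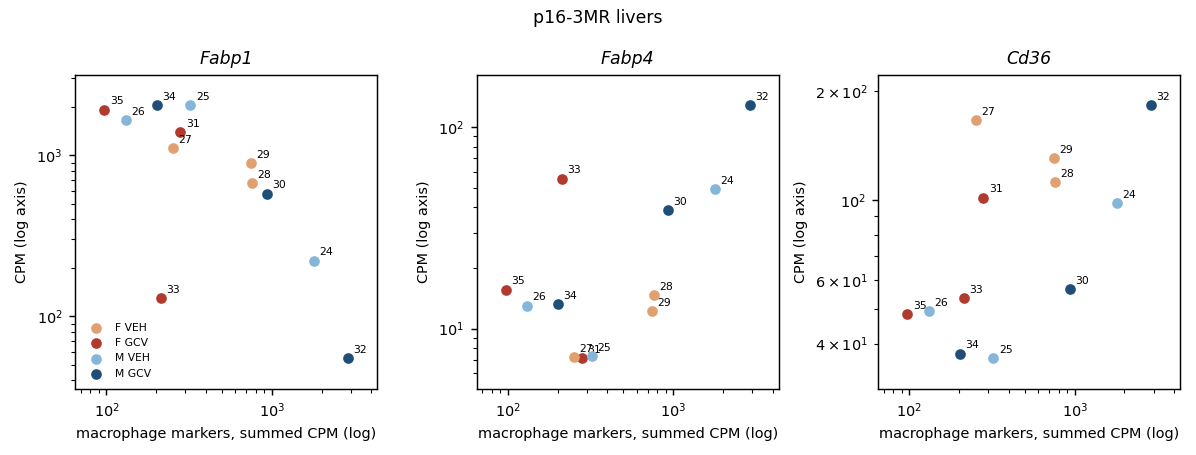
Level of Fabp1, Fabp4 and Cd36 (CPM, log axis) against the summed level of 7 macrophage and Kupffer cell markers (CPM, log axis) in the 12 p16-3MR livers, numbered by liver and coloured by group. GCV-treated male 32 and VEH-treated male 24 lie at the right with low Fabp1 (54.9 and 222 CPM) and high Fabp4 (129 and 49.1 CPM), while GCV-treated female 33 has low Fabp1 (130 CPM) with macrophage markers at 213 CPM.

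Cd36 was the only member whose treatments did not overlap in p16-3MR females, and it was not called. The study had reported Cd36 as lower across clearance approaches, with these females among the data, so their values are given as a description. Cd36 was at 166, 112 and 130 CPM in the VEH-treated females and at 101, 53.3 and 48.1 CPM in the GCV-treated females. Each VEH-treated female was above each GCV-treated female, as for 13.3% of all genes in either direction, and the log2 fold change was -1.01 (standard error 0.57, unadjusted p = 0.101, adjusted p = 0.683). In males it was at 97.7, 36.4 and 49.2 CPM after VEH and at 56.5, 183 and 37.5 CPM after GCV, with overlap and a mean difference of 0.60 on the log2 scale (standard error 0.57, adjusted p = 1). It was -0.43 without GCV-treated male 32, 1.14 without VEH-treated male 24 and 0.14 without the 3 livers. The 2 highest males were VEH-treated male 24 and GCV-treated male 32. Each VEH-treated female was also above each VEH-treated male, as for 9.34% of all genes, at 1.15 on the log2 scale (standard error 0.57, adjusted p = 1), and of 1.68 without the 3 livers (adjusted p = 0.0543). Without the 3 livers, the log2 fold change after GCV in females was -0.92 (adjusted p = 0.432). The summed macrophage markers were at 251, 762 and 745 CPM in the VEH-treated females and at 280, 213 and 97.1 CPM in GCV-treated females 31, 33 and 35, and 7 endothelial markers at 244, 309 and 140 CPM and at 96.8, 163 and 112 CPM. The 5 stellate cell markers separated the same females, at 348, 319 and 304 CPM after VEH and at 237, 160 and 280 CPM after GCV. The 3 B cell markers were at 6.70, 18.1 and 51.5 CPM after VEH and at 1.16, 6.95 and 6.54 CPM after GCV. Of these, 2 of 3 were lower at an unadjusted p under 0.05, with a median log2 fold change of -2.52. At that p, 3 of 7 endothelial markers (median -1.01), 1 of 7 macrophage markers (-1.45) and 1 of 3 T cell markers (-1.10) were lower as well. The hepatocyte and cholangiocyte lists each had 1 marker higher. This p was reached by 7.37% of all genes in either direction, and none of these markers was called. The part of these markers in the level of Cd36 was not tested.

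Cidec had 0 counts in all 3 VEH-treated p16-3MR females, which allows up to 0.378 to 0.434 CPM per liver. In GCV-treated females 31, 33 and 35 it had 11, 0 and 4 counts. VEH-treated males 24, 25 and 26 had 12, 12 and 49 counts (1.40, 2.14 and 7.66 CPM), and GCV-treated males 30, 32 and 34 had 1, 4 and 4 counts (0.14, 0.39 and 0.77 CPM). Against the floor of 3 counts over the group (0.134 CPM), VEH-treated males were at least 27.8-fold higher than VEH-treated females, and GCV-treated females at least 6.92-fold higher. A single liver weighed much in each bound, which was 13.2-fold without VEH-treated male 26 (49 of 73 counts) and 2.50-fold without GCV-treated female 31 (11 of 15 counts). Neither was called by edgeR (adjusted p = 0.147 and 0.646), and the lower level in GCV-treated than in VEH-treated males, without overlap (6.4% of all genes), was not called either (adjusted p = 1). The difference between VEH-treated females and males was called by DESeq2 (adjusted p = 0.00105), by limma-voom with sample weights (adjusted p = 0.000758) and by edgeR without the 3 livers (adjusted p = 0.0113).

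**Figure D4:**
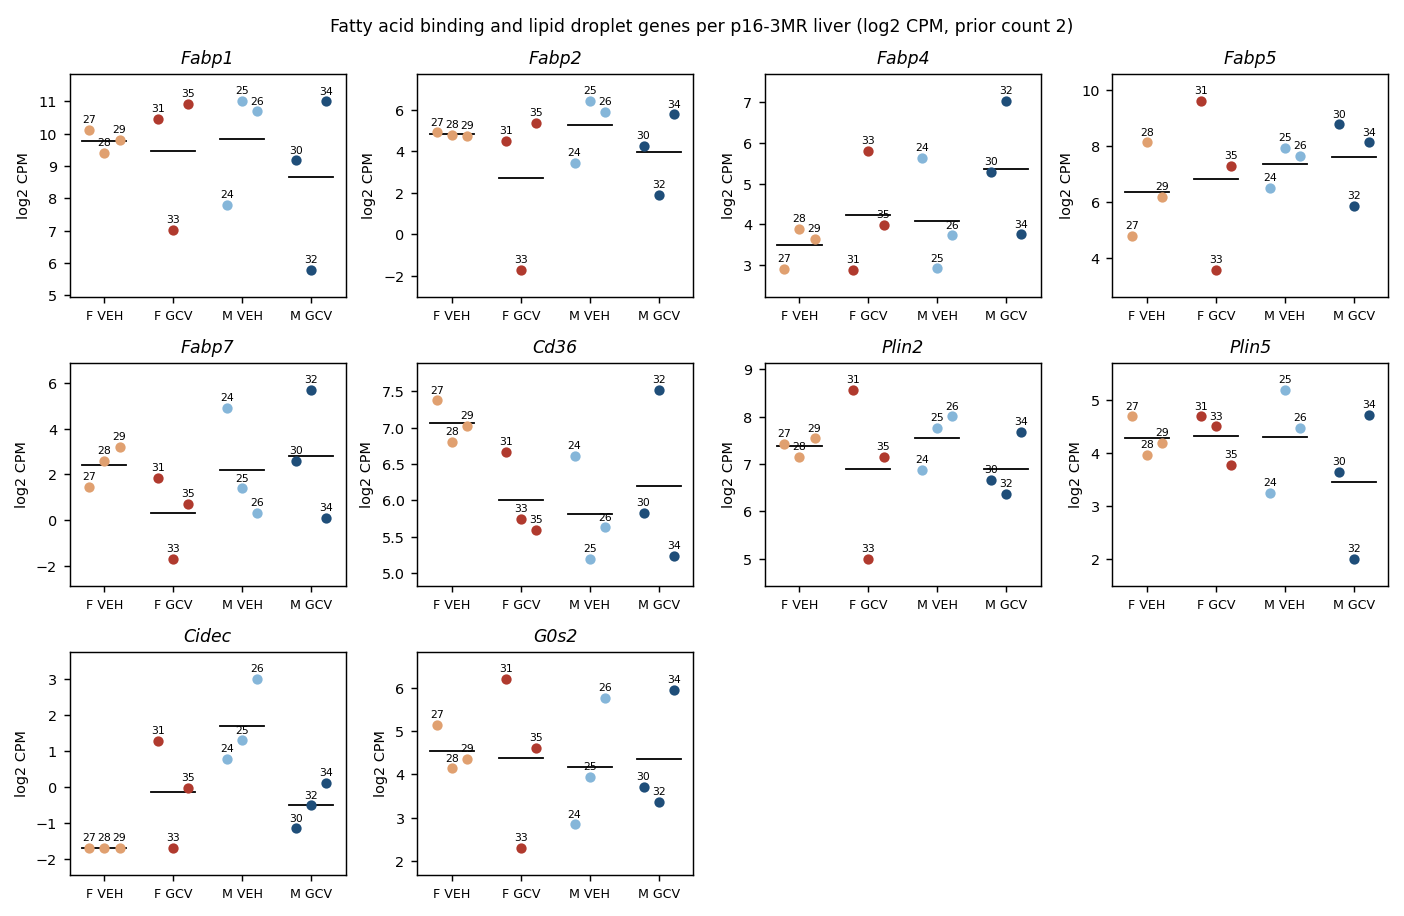
Level of the 10 members in each p16-3MR liver (log2 CPM with a prior count of 2), 1 panel per gene, with points numbered by liver and a black line at the mean of each group of 3. GCV-treated male 32 and VEH-treated male 24 are the lowest males for Fabp1, Fabp2 and Plin5 and the highest for Fabp4, Fabp7 and Cd36, and GCV-treated female 33 is lowest for Fabp2, Fabp5, Plin2 and G0s2.

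In p16-3MR livers the level of Fabp5 was 27.2, 280 and 71.7 CPM in VEH-treated females and 782, 11.6 and 155 CPM in GCV-treated females. Males were at 90.1, 244 and 201 CPM after VEH and at 439, 58.0 and 279 CPM after GCV. The highest and the lowest of all 12 livers were both GCV-treated females, 31 and 33. Its log2 fold change after GCV was 1.33 in females (standard error 1.12, adjusted p = 0.748), and it ran from -0.58 without GCV-treated female 31 to 2.61 without VEH-treated female 28.

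Among the droplet genes, Plin2, the coat protein of hepatocyte droplets, was at 172, 141 and 186 CPM in VEH-treated p16-3MR females and at 377, 31.7 and 142 CPM in GCV-treated females. It was at 117, 217 and 256 CPM in VEH-treated males and at 101, 82.4 and 204 CPM in GCV-treated males. The log2 fold changes were 0.15 in females (standard error 0.66, adjusted p = 0.996) and -0.61 in males (standard error 0.67, adjusted p = 1), and that in females was -0.93 without liver 31 and 0.58 without liver 33. Plin5 was the steadiest member in p16-3MR females, at 25.6, 15.3 and 18.0 CPM after VEH and at 25.6, 22.4 and 13.4 CPM after GCV. In males it was at 9.22, 36.3 and 21.9 CPM after VEH and at 12.3, 3.71 and 26.1 CPM after GCV. G0s2 was at 34.98, 17.4 and 20.1 CPM in VEH-treated and at 73.5, 4.63 and 24.2 CPM in GCV-treated females, and at 6.88, 15.0 and 54.1 CPM in VEH-treated and 12.8, 10.05 and 61.9 CPM in GCV-treated males. Between VEH-treated females and males G0s2 differed here by a log2 fold change of -0.07 with a standard error of 0.89 (1.15 without VEH-treated male 26), and whether this departs from the WT value was not tested.

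Read by comparison, the median log2 fold change of the 10 members in p16-3MR mice was 0.26 after GCV in females, -0.20 in males, -0.53 between VEH-treated females and males and 0.30 between GCV-treated females and males, against 0, 0.04, -0.05 and -0.05 over all genes. edgeR called 0% of all genes between GCV and VEH in either sex, 0.12% between VEH-treated and 0.0965% between GCV-treated females and males. At an unadjusted p under 0.05 there was 1 member in each comparison, against 7.37%, 1.91%, 2.74% and 8.41% of all genes. It was Cidec in the first 3 and Fabp7 in the last. The response of females less that of males had 0 called members and 1 at an unadjusted p under 0.05, Cidec again, against 3.78% of all genes. The median of the members for this response was 0.71, against -0.04 over all genes. DESeq2 called 0 members except Cidec between VEH-treated females and males, and limma-voom called Cidec there and in males after GCV (adjusted p = 0.0226). Of the 54 further genes, 52 were measured, and none was called by edgeR in any of these comparisons. At an unadjusted p under 0.05, 3 were higher in GCV-treated than in VEH-treated females, 1 was lower in GCV-treated than in VEH-treated males, 1 was lower in VEH-treated females than in males, and 3 were higher and 1 was lower in GCV-treated females than in males.

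**Figure D5:**
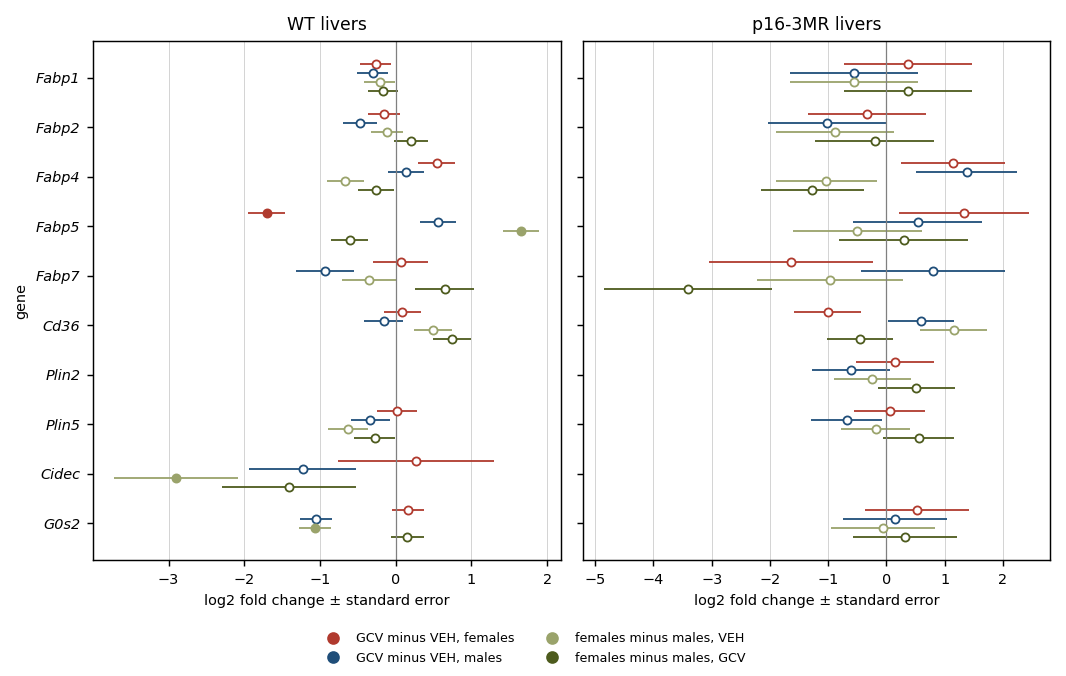
Log2 fold change of each member with its standard error in WT (left) and p16-3MR livers (right), for GCV against VEH within each sex and for females against males within each treatment, with filled points where the adjusted p is under 0.05. Filled points are Fabp5 (-1.70 in females after GCV and 1.65 under VEH), Cidec (-2.90) and G0s2 (-1.07) in WT livers, and Cidec in p16-3MR livers is left out because a group had 0 counts.

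The genes most like each member across the 12 livers of a table were ranked by Pearson's r of log2 CPM, over 12374 genes in p16-3MR mice, as a description in which depth and cell content are shared by all genes of a liver. In p16-3MR livers the gene most like Fabp5 was its own copy Gm6166 (r = 0.96), and Slc10a2 and Ctsl followed (r = 0.88 each). Those most like Fabp1 were Acaa2, a thiolase of mitochondrial fatty acid oxidation, Ddt and Sod1 (r = 0.99 each). Slc39a6 was most like Fabp4 (r = 0.96), Cdkn2c most like Cd36 (r = 0.90), Itfg1 most like Plin2 (r = 0.95), Fpgs most like Plin5 (r = 0.95) and Tmem70 most like G0s2 (r = 0.91). With the mean of each sex taken off, Gm6166, Acaa2 and Tmem70 stayed first for Fabp5, Fabp1 and G0s2, while Sema6d came first for Cd36 (r = 0.95), Asb4 for Fabp4 (r = 0.97), Sned1 for Plin2 (r = 0.97) and Hspb6 for Plin5 (r = 0.96). In WT livers the genes ranked first without that step were Papola for Fabp1 (r = 0.94), Gabarapl1 for Fabp2 (r = 0.94) and Zbtb4 for Fabp5 (r = 0.89). With the mean of each sex taken off, Fabp1 was most like Bdh1, a ketone body enzyme, and Papola (r = 0.97 and 0.96). Fabp2 was most like Gabarapl1, Lipa, the lysosomal lipase, and Cfd (r = 0.96, 0.94 and 0.94). Fabp5 was most like Zbtb4, Itga9 and Acaca, the first enzyme of fatty acid synthesis (r = 0.94, 0.93 and 0.91).

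Set side by side, Fabp1 was at 7204 to 14912 CPM in WT and at 54.9 to 2056 CPM in p16-3MR livers, and the ranges of the other 8 members read in both tables overlapped. The tables list different numbers of genes and were scaled separately, so no test was made.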

How the data were processed

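Bulk liver RNA was read from transcript 3′ ends. Per the labels and the study's methods, the authors trimmed reads with Trim Galore 0.6.10, checked them with FastQC 0.11.9, estimated expression with Salmon 1.10.3 (build mm10) and left out genes with very few reads. The deposited values are estimated counts per gene and were rounded to whole numbers here. All 24 sample columns were used, with 0 left unused. Each table was fitted separately with edgeR 4.0.16 (R 4.3.3, quasi-likelihood test, TMM, one mean per group, 12 livers), with Benjamini-Hochberg adjustment over all its genes and calls at an adjusted p under 0.05. Members and lists were chosen with earlier results of these data known. All members are named. Of the further lipid genes, those called are named, at most 6 a comparison by size of change, and of like genes up to the 3 closest (mean of at least 10 counts), of which 1 is not reported here. Counts limit precision: 3 counts, taken as the floor for a 0, were worth 0.419 to 0.599 CPM in p16-3MR and 0.529 to 0.973 CPM in WT libraries before TMM scaling, and floors cover counting error only. Where the labels do not state separate animals, p-values measure only the spread between these samples. Log2 CPM values use a prior count of 2. Alternatives were DESeq2 1.42.0, limma-voom (limma 3.58.1) with sample weights, DESeq2 size factors, mitochondrial genes left out, a low-count filter, the 2 groups alone, each liver left out, a replicate block and, chosen after seeing the data, 3 livers left out together and Fabp5 summed with its copies. The scripts were tested on simulated counts. Tables and plots used Python 3.11.15, pandas 2.3.3, numpy 2.4.6 and matplotlib 3.10.9. Promoter sequences came from RefSeq (GRCm38.p6).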

Additional observations from a re-analysis of the deposited data

Results flagged for a closer look

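The response of Fabp5 to GCV in WT mice was -2.26 on the log2 scale in females less that in males, by the interaction term of edgeR, with lower levels after GCV in the 3 females and ranges that overlapped in males. Fabp5 was chosen with its WT female values known, so this is a description and no support. The call was lost in 7 of the 12 fits with 1 liver left out, with DESeq2 (adjusted p = 0.0946) and with the low-count filter (adjusted p = 0.222).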

How the results depend on the processing

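No log2 fold change of a member that was called turned its direction under any alternative. Of 990 values for members in p16-3MR mice, 934 were counted as unchanged, and of 873 in WT mice 816 were. An unchanged value stayed on its side of the threshold. If not called, it also moved by less than the standard error of its log2 fold change in the main fit. Such a value could still change sign, and no limit on its move applied where that standard error was missing. The number of members called in p16-3MR males after GCV was 1 with limma-voom against 0, and between VEH-treated females and males it was 1 with DESeq2, with limma-voom and without the 3 livers that stood apart, against 0. In WT females after GCV it was 0 with the low-count filter against 1, and 0 to 1 with a liver left out. For the response of WT females less that of males it was 0 with DESeq2 and with the filter against 1, and 0 to 2 with a liver left out. In WT males after GCV it was 0 to 3 with a liver left out, with 3 without VEH-treated male 1, where 46 genes of all were called against 0. Between GCV-treated WT females and males it was 2 in the fit of the 6 livers alone against 0, and 0 to 2 with a liver left out, with 2 without VEH-treated male 1, where 547 genes of all were called against 410. Between VEH-treated WT females and males it was 2 to 4 with a liver left out, against 3, with 319 genes of all called without VEH-treated male 3 and 716 without VEH-treated male 1, against 483. The cause of these shifts was not tested. Over all genes, the count in p16-3MR females after GCV was 90 with DESeq2, 7 with limma-voom, 3 in the 2 groups alone and 4 without the 3 livers, against 0, and in males it was 5, 145, 0 and 5, against 0. Between VEH-treated p16-3MR females and males it was 102, 154, 59 and 120, against 26, and between GCV-treated ones 131, 77, 20 and 50, against 21. With 1 liver left out it ran from 17 to 35 between VEH-treated and from 7 to 24 between GCV-treated p16-3MR females and males. In p16-3MR mice the response of females less that of males gave 3 with DESeq2, 1 with limma-voom and 2 without the 3 livers, against 0. In WT females after GCV it was 17 with DESeq2, 3 with limma-voom, 0 with the filter and 44 in the 2 groups alone, against 1, and in WT males 1 with DESeq2, against 0. For the response of WT females less that of males it was 0 with the filter, against 1.

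Replicate numbers were shared between GCV and VEH groups in WT mice only, and the deviations of same-numbered livers correlated at -0.07 to 0.28, so the numbers were not taken to pair livers. With the replicate block within sex, 106 genes were called in WT females, 68 in males and 79 for the response of females less that of males, against 1, 0 and 1. The block gave 2 called members in males (G0s2 and Fabp5) and 2 for the response of females less that of males (Fabp5 and G0s2), and left the 1 in females. In neither sex did every liver correlate best with its own number.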
